A study of Mus musculus with 16 samples.

Results

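The comparison asked what still separated Dnm2SL/+ muscle from wild-type muscle when both genotypes had been given the same antisense oligonucleotide, ASO1. It used 6 of the 16 RNA-seq libraries of the series, 4 labelled Dnm2SL/+ ASO1 and 2 labelled WT ASO1. The other 10 libraries, 4 of WT ASO Control and 6 of Dnm2SL/+ ASO Control, gave the genotype difference without ASO1 and entered the estimate of the spread. All 16 were made from tibialis anterior, which lifts the foot and in mice holds mostly fast fibres, of 7-week-old males of the C57BL/6N strain. The Dnm2SL/+ genotype has 1 mutated copy of Dnm2 and serves as a model of autosomal dominant centronuclear myopathy, and the WT genotype has none. ASO1 is an antisense oligonucleotide that lowers Dnm2, and ASO Control is the oligonucleotide given to the comparison mice, and no library was labelled as untreated. Doses and dates of injection were not given in the sources used here. The labels number the libraries as replicates but do not say whether each came from its own animal, so p-values measure the spread between these libraries. With 2 libraries in the WT ASO1 group, each value of that group rested on a pair.

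Dnm2 encodes dynamin 2, a large GTPase that assembles around the neck of a budding membrane and severs it, and that also acts on the cytoskeleton. In muscle fibres it is needed at the membrane systems that link excitation to contraction, and dominant mutations of the gene cause a myopathy in which nuclei lie in the centre of the fibre. An antisense oligonucleotide pairs with the transcript of its target and lowers it. The series title describes Dnm2 itself as the target.

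Library totals ran from 30148163 to 33667052 counts, and 15649 of 30037 genes passed the filter on low counts. Ckm, Acta1 and Myh4, genes of skeletal muscle fibres, had at least 14255, 32154 and 16840 CPM (read counts scaled to a common library size) in every library. Of 120 pairs of libraries none was close enough to be the same library deposited more than once. The 20 most counted genes took 37.3% ± 0.061 (SD, n = 2) of the counts in WT ASO1 and 34.9% ± 0.745 (n = 4) in Dnm2SL/+ ASO1 (exact two-sided permutation test, p = 0.133, the smallest that 4 against 2 libraries allow). The share of mitochondrial transcripts was 12.3% ± 2.26 and 12.1% ± 0.939 (exact p = 0.8), and it differed between the 2 WT ASO1 libraries, at 10.7% and 13.9%.

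Dnm2, the gene that is both mutated and targeted, had mostly lower values on ASO1 than on ASO Control in both genotypes. It was at 23.0 and 25.0 CPM in the 2 WT ASO1 libraries and at 28.2, 35.2, 26.6 and 32.2 CPM in the 4 Dnm2SL/+ ASO1 libraries. On ASO Control it ranged from 45.4 to 57.2 CPM in WT and from 35.2 to 65.1 CPM in Dnm2SL/+. The ASO1 groups did not overlap each other, with every mutant library above both WT libraries, but the log2 fold change of 0.35 ± 0.20 (SE) did not pass the test (adjusted p = 0.335, edgeR quasi-likelihood test with Benjamini-Hochberg adjustment, used throughout). The exact two-sided permutation test gave p = 0.133, the smallest it can give here. The counts do not separate the mutated from the normal copy.

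With both genotypes on ASO1, 549 of the 15649 genes tested differed at an adjusted p under 0.05. Of these, 160 were higher in Dnm2SL/+ ASO1 (1.02% of genes tested) and 389 were lower (2.49%). The rises were larger and lay in less expressed genes, with a median log2 fold change of 1.02 and a median level of 2.54 log2 CPM. The falls were smaller and lay in highly expressed genes, with medians of -0.43 and 5.78, against a median level of 3.06 over all genes tested. More than a 2-fold difference was found in 83 rises and 33 falls. The largest named rises were in Katnal2, Sln and Cilp, and the largest named falls in Tmem100, Car3 and Slc15a5.

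All of these edgeR calls were lost without 1 library. That library was WT ASO1 replicate 1, and leaving it out left 1 library in its group. DESeq2, another count test, still called some of the 549 in the libraries left, in an alternative added after the data had been seen. The 549 had been picked with these same libraries, so this is no separate support. Without WT ASO1 replicate 2 there were 620 calls. Leaving out Dnm2SL/+ ASO1 replicate 2 left 165 calls and leaving out replicate 4 left 87, while leaving out replicates 1 and 3 gave 494 and 625. Each of the 549 genes kept its direction in all 6 of these fits. That was nearly fixed in advance, since none of the 549 overlapped between the WT ASO1 and Dnm2SL/+ ASO1 libraries. Of all genes tested, 27.1% did not overlap. For 482 of the 549 genes (87.8%), WT ASO1 replicate 1 lay further from the mean of the treated mutants than WT ASO1 replicate 2 did, against 63.4% of all genes tested. Leaving out 1 library moved the fold change of 7 of the 24 named rises and falls by more than 1.5 times. Without WT ASO1 replicate 1 the log2 fold change of Irx3os was -0.69, and without WT ASO1 replicate 2 those of Sln, Ahnak2, Plekhh2 and Csrp3 were 4.22, 3.40, 2.97 and 2.88. Tnni1 and Myom3 moved with either WT library left out. The calls below are those of the fit to all 16 libraries, and each carries this limit.

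**Figure D1:**
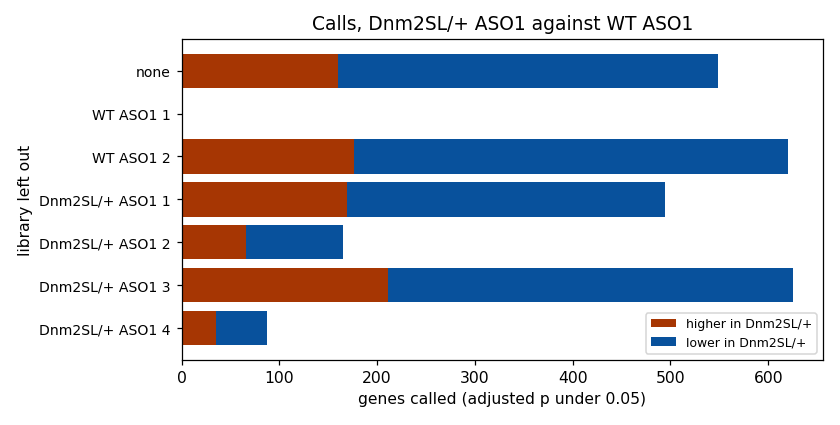
Number of genes called between Dnm2SL/+ ASO1 and WT ASO1 (horizontal axis, adjusted p under 0.05) with no library left out and with each of the 6 ASO1 libraries left out in turn (vertical axis), split into genes higher and lower in Dnm2SL/+. The bar for WT ASO1 1 is empty (0 calls), and the bars for Dnm2SL/+ ASO1 2 and 4 (165 and 87) are shorter than the 549 of the full fit.

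A set of 4 genes was also called when only the 6 ASO1 libraries were fitted, with no help from the ASO Control libraries in estimating the spread. They were Katnal2, Cilp, Mettl11b and Slc40a1. Slc40a1 was singled out after its values had been seen, and the others were also among the largest rises and falls described next.

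Katnal2 (ENSMUSG00000025420, chr18:76977148-77047308, minus strand, GRCm38), a katanin-like protein of the family that severs microtubules, was at 0.389 and 0.431 CPM in WT ASO1 and at 3.65, 5.58, 6.41 and 3.99 CPM in Dnm2SL/+ ASO1. Each treated mutant library was several times above both treated WT libraries. The log2 fold change was 3.57 ± 0.53 (adjusted p = 0.00906, and 0.0445 in the 6-library fit). On ASO Control the gene was at 0.550 to 2.17 CPM in WT and 5.91 to 11.4 CPM in Dnm2SL/+.

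Cilp (ENSMUSG00000042254, chr9:65265180-65280605, plus strand), the cartilage intermediate layer protein of the extracellular matrix, was at 11.9 and 14.7 CPM in WT ASO1 against 174, 123, 190.4 and 99.0 CPM in Dnm2SL/+ ASO1. The lowest treated mutant stood well above the higher of the treated WT libraries. The log2 fold change was 3.46 ± 0.63 (adjusted p = 0.0156, and 0.0403 in the 6-library fit). On ASO Control it was 11 to 52.3 CPM in WT and 278 to 1186 CPM in Dnm2SL/+, a log2 fold change of 4.94 ± 0.48.

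Mettl11b (ENSMUSG00000040113, chr1:163702256-163725232, minus strand), a methyltransferase that acts on protein N-termini, was at 50.2 and 40.9 CPM in WT ASO1 and lower, at 17.8, 15.5, 14.3 and 18.5 CPM, in Dnm2SL/+ ASO1. The log2 fold change of -1.46 ± 0.18 (adjusted p = 0.00644, 0.0403 in the 6-library fit) lay close to the -1.42 ± 0.14 found under ASO Control. The 4 mutant libraries were tightly grouped below both WT libraries.

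Slc40a1 (ENSMUSG00000025993, chr1:45908068-45926523, minus strand), ferroportin, the exporter of cellular iron, was at 62.7 and 68.7 CPM in WT ASO1 and at 30.7, 35.4, 30.2 and 34.8 CPM in Dnm2SL/+ ASO1. The treated mutants were at about the same level as each other and below both treated WT libraries. The log2 fold change was -1.004 ± 0.17 (adjusted p = 0.0143, and 0.0445 in the 6-library fit), against -1.37 ± 0.13 under ASO Control.

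Among the remaining large rises were genes of slow fibres and of the sarcomere. Sln (ENSMUSG00000042045, chr9:53850164-53854560, plus strand) encodes sarcolipin, a small membrane protein that inhibits the calcium pump of the sarcoplasmic reticulum. It was at 0.425 and 1.01 CPM in WT ASO1 and at 9.24, 14.0, 3.37 and 5.29 CPM in Dnm2SL/+ ASO1. The treated mutants were spread widely, all above both WT libraries, and the log2 fold change was 3.47 ± 0.89 (adjusted p = 0.0437).

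Tnni1, the troponin I of slow fibres, was at 0.566 and 3.31 CPM in WT ASO1 and at 6.31, 8.64, 18.5 and 13.6 CPM in Dnm2SL/+ ASO1, with a log2 fold change of 2.60 ± 0.55 (adjusted p = 0.0229). Myom3, an M-band protein, was at 9.83 and 37.1 CPM and at 137, 171, 137 and 121 CPM, with a log2 fold change of 2.59 ± 0.45 (adjusted p = 0.0146). In both genes WT ASO1 replicate 1 was far below replicate 2, while replicate 2 lay within the range of WT ASO Control (2.43 to 4.23 CPM for Tnni1 and 29.1 to 60.6 CPM for Myom3). Without replicate 1 the log2 fold changes were 1.83 for Tnni1 and 1.94 for Myom3, and without replicate 2 they were 4.37 and 3.85.

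Csrp3, the muscle LIM protein of the Z-disc, was at 19.6 and 44.8 CPM in WT ASO1 and at 209, 115, 123 and 129 CPM in Dnm2SL/+ ASO1, with the first mutant library above the rest. Its log2 fold change was 2.16 ± 0.43 (adjusted p = 0.0206). Mybph, myosin binding protein H, was at 44.0 and 78.2 CPM and at 226, 249, 202 and 308 CPM, with a log2 fold change of 2.01 ± 0.53 (adjusted p = 0.0498). WT levels of Mybph on ASO Control were also scattered, from 19.4 to 128 CPM.

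Ahnak2, a giant scaffold protein related to Ahnak, was at 1.42 and 3.81 CPM in WT ASO1 and at 12.6, 10.8, 23.8 and 12.8 CPM in Dnm2SL/+ ASO1, with a log2 fold change of 2.52 ± 0.43 (adjusted p = 0.0143). The third mutant library stood above the others. Under ASO Control the mutant libraries had reached 69.8 to 120.2 CPM, and the genotype effect under ASO1 was smaller by the test of the interaction (difference -2.07 ± 0.50 log2 units, adjusted p = 0.0395).

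Ttc9, a tetratricopeptide repeat protein, was at 3.68 and 6.58 CPM in WT ASO1 and at 17.6, 24.9, 22.1 and 18.1 CPM in Dnm2SL/+ ASO1, against 44.8 to 102 CPM in mutants on ASO Control. Its effect under ASO1 (log2 fold change 2.01 ± 0.36, adjusted p = 0.0146) was likewise smaller than under ASO Control (3.84 ± 0.28, interaction adjusted p = 0.0303). Uchl1, a ubiquitin hydrolase best known from neurons, was at 2.48 and 2.23 CPM and at 8.58, 6.23, 16.5 and 6.88 CPM, with a log2 fold change of 2.02 ± 0.48 (adjusted p = 0.033). Its interaction did not pass (adjusted p = 0.0528).

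The last of the 12 named rises were Fam171b, at 0.743 and 0.899 CPM against 7.04, 3.56, 10.6 and 2.47 CPM (log2 fold change 2.84 ± 0.63, adjusted p = 0.027), and Plekhh2, at 0.601 and 1.33 CPM against 4.64, 3.79, 5.00 and 5.51 CPM (log2 fold change 2.29 ± 0.35, adjusted p = 0.00906). The 12 were those with the largest log2 fold change among called genes with a mean of at least 1 log2 CPM over the ASO1 libraries, no overlap between groups and no provisional symbol. All 12 were also higher in Dnm2SL/+ under ASO Control at an adjusted p under 0.05.

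**Figure D2:**
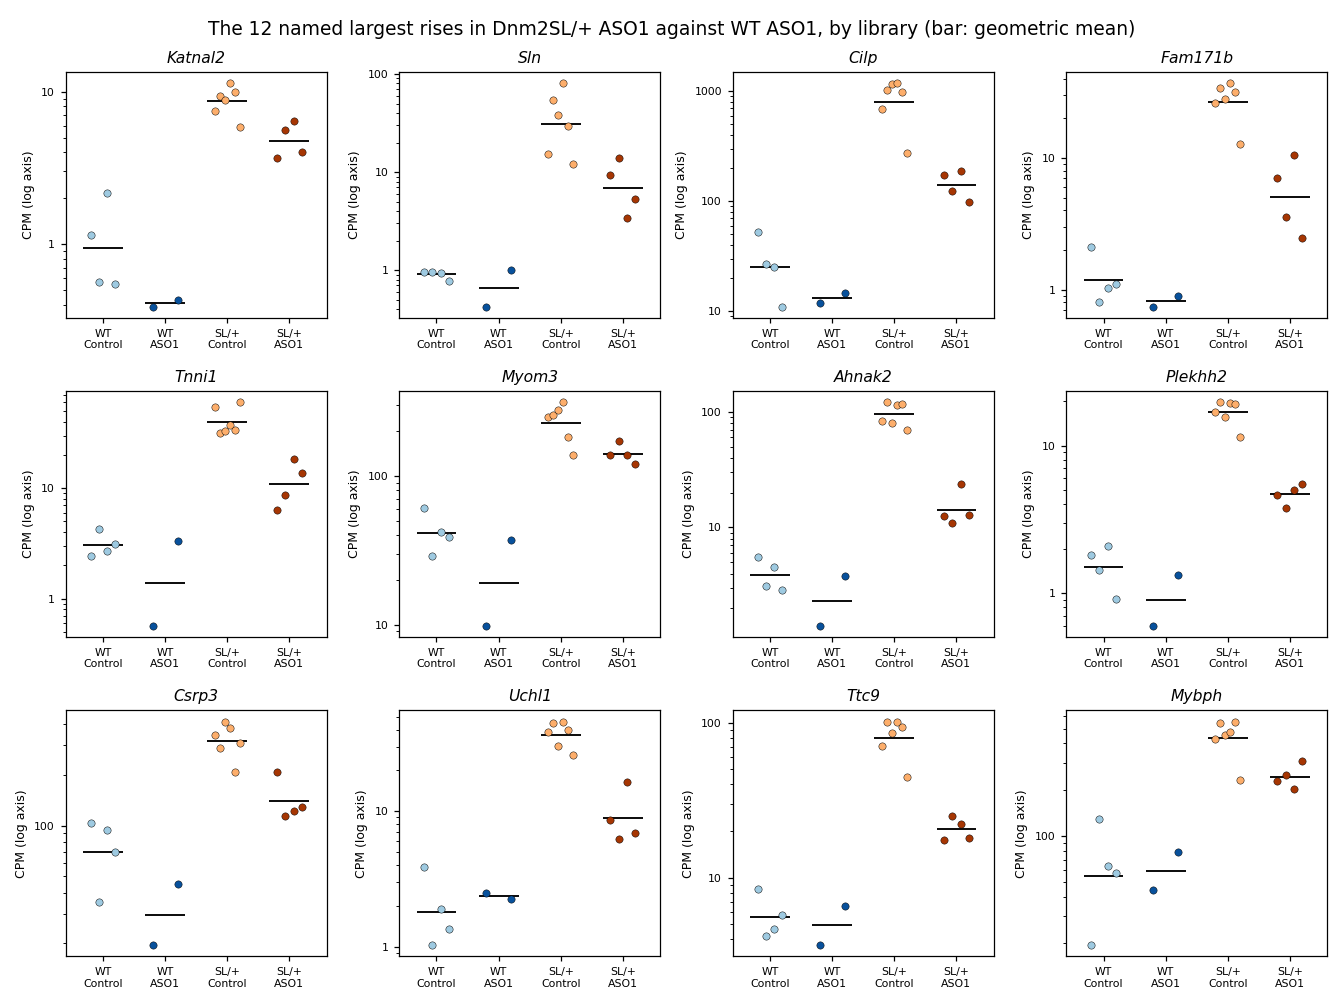
CPM in each of the 16 libraries (points, vertical log axis, a scale of its own for each gene) for the 12 named rises, in the 4 groups on the horizontal axis, with a bar at each group's geometric mean. In every panel the 4 Dnm2SL/+ ASO1 points lie above both WT ASO1 points, as the naming rule requires. In every panel but that of Uchl1 the first WT ASO1 library (left point) lies below the second.

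Promoters of named genes were searched for the E-box CAGCTG, a motif read by myogenic factors, and 3 that hold it are printed. The window was 250 bases before to 50 after the RefSeq start (build GRCm38.p6), and 11301 tested genes matched one. CAGCTG, which reads the same on both strands, was in 28.1% of 121 promoters of genes called higher, in 13.5% of 289 of genes called lower and in 15.4% of all 11301. Of 4 other motifs searched on both strands, each counted whether or not it overlapped another, TGTGGT (RUNX) was in 19%, 9.34% and 12.3% and TGANTCA (AP-1) in 9.09%, 5.88% and 5.08%. The shares for GCGTGGG (EGR) were 4.13%, 8.65% and 8.13%, and those for TATAAA were 9.09%, 8.65% and 7.80%. These are descriptions of letters in a window, with no test. Among the named rises and falls CAGCTG lay in the 250 bases before the start of Cilp, Mybph, Snph, Tnni1 and Ahnak2. For Katnal2, Sln, Fam171b, Tmem100, Car3 and Slc2a3 these bases were not examined gene by gene, so whether they hold CAGCTG is not given here. For Tnni1 and Ahnak2 the RefSeq start lay 19987 and 6915 bases from the GENCODE start of the gene, so they are not printed. The bases follow for the matrix gene Cilp (chr9:65264930-65265179, plus strand), the sarcomere gene Mybph (chr1:134193198-134193447, plus strand) and, from the falls, Snph (chr2:151632594-151632843, minus strand), 5′ to 3′ with CAGCTG in capitals.
Cilp: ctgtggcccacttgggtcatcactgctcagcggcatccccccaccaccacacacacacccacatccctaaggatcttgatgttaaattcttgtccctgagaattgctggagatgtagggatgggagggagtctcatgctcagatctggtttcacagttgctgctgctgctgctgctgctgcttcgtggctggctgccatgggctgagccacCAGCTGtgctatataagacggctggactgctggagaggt
Mybph: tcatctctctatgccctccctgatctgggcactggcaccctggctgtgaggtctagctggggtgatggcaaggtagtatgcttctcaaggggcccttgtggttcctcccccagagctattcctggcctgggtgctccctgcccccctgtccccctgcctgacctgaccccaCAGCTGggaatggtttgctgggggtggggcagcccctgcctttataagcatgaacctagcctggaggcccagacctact
Snph: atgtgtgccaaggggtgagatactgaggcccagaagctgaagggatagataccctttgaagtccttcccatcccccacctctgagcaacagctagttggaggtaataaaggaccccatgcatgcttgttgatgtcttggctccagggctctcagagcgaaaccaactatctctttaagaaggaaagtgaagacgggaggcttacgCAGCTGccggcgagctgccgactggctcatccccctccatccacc

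Of the 12 named falls the highest expressed was Car3, carbonic anhydrase 3, an enzyme abundant in muscle and fat. It was at 5266 and 3027 CPM in WT ASO1 and at 1081, 686, 919 and 1212 CPM in Dnm2SL/+ ASO1. The mutant libraries were all below both WT libraries, and the log2 fold change was -2.09 ± 0.27 (adjusted p = 0.00644). WT ASO Control libraries lay at 2034 to 3829 CPM and Dnm2SL/+ ASO Control libraries at 806 to 1389 CPM.

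Tmem100, a small transmembrane protein, was at 26.1 and 23.4 CPM in WT ASO1 and at 5.00, 3.30, 7.75 and 7.00 CPM in Dnm2SL/+ ASO1, with a log2 fold change of -2.10 ± 0.28 (adjusted p = 0.00798). Both WT ASO1 libraries were above the WT ASO Control range of 10.4 to 20.3 CPM. The genotype effect was -1.17 ± 0.22 under ASO Control, and the difference between the effects did not pass (interaction adjusted p = 0.167).

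Amd1, S-adenosylmethionine decarboxylase, which supplies the propylamine groups of polyamines, was at 194 and 110.0 CPM in WT ASO1 and at 37.4, 29.5, 61.0 and 49.0 CPM in Dnm2SL/+ ASO1 (log2 fold change -1.78 ± 0.43, adjusted p = 0.0355). Smyd2, a lysine methyltransferase of muscle, was at 441 and 288 CPM and at 185, 113, 125 and 131 CPM (log2 fold change -1.40 ± 0.21, adjusted p = 0.00906). The Smyd2 effect was -1.40 ± 0.16 under ASO Control. Amd1 has a near-identical copy, Amd2, so its count is uncertain where reads could not be placed.

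Stab2, a scavenger receptor for hyaluronan, was at 17.0 and 15.9 CPM in WT ASO1 and at 8.22, 3.00, 6.93 and 6.02 CPM in Dnm2SL/+ ASO1 (log2 fold change -1.44 ± 0.25, adjusted p = 0.0143). Slc2a3, the glucose transporter GLUT3, was at 10.1 and 6.87 CPM and at 4.05, 2.57, 3.89 and 2.85 CPM (log2 fold change -1.34 ± 0.25, adjusted p = 0.0173). Snph, syntaphilin, which docks mitochondria to microtubules, was at 5.13 and 3.02 CPM and at 1.45, 0.957, 1.54 and 2.09 CPM (log2 fold change -1.43 ± 0.32, adjusted p = 0.027). On ASO Control the mutants were at 5.05 to 6.40, 1.58 to 3.23 and 0.658 to 1.60 CPM for Stab2, Slc2a3 and Snph.

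Socs3, a feedback inhibitor of cytokine signalling, followed another pattern. It was at 6.33 and 5.57 CPM in WT ASO1 and at 1.78, 2.80, 2.81 and 2.34 CPM in Dnm2SL/+ ASO1 (log2 fold change -1.29 ± 0.30, adjusted p = 0.0327), while WT ASO Control was at 1.80 to 3.20 CPM. It was the treated WT libraries that stood apart, and the interaction passed (difference -1.65 ± 0.39 log2 units, adjusted p = 0.0358). The effect under ASO Control was 0.36 ± 0.24 and did not pass (adjusted p = 0.267).

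The other 3 named falls were Slc15a5, a member of the peptide transporter family (log2 fold change -1.98 ± 0.47, adjusted p = 0.0327), and the antisense RNAs Irx3os (-1.36 ± 0.36, adjusted p = 0.0485) and Junos (-1.21 ± 0.29, adjusted p = 0.0355). Whether counting used strand is not given in the sources used here, so reads of the antisense RNAs and of their partner genes may not have been told apart.

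**Figure D3:**
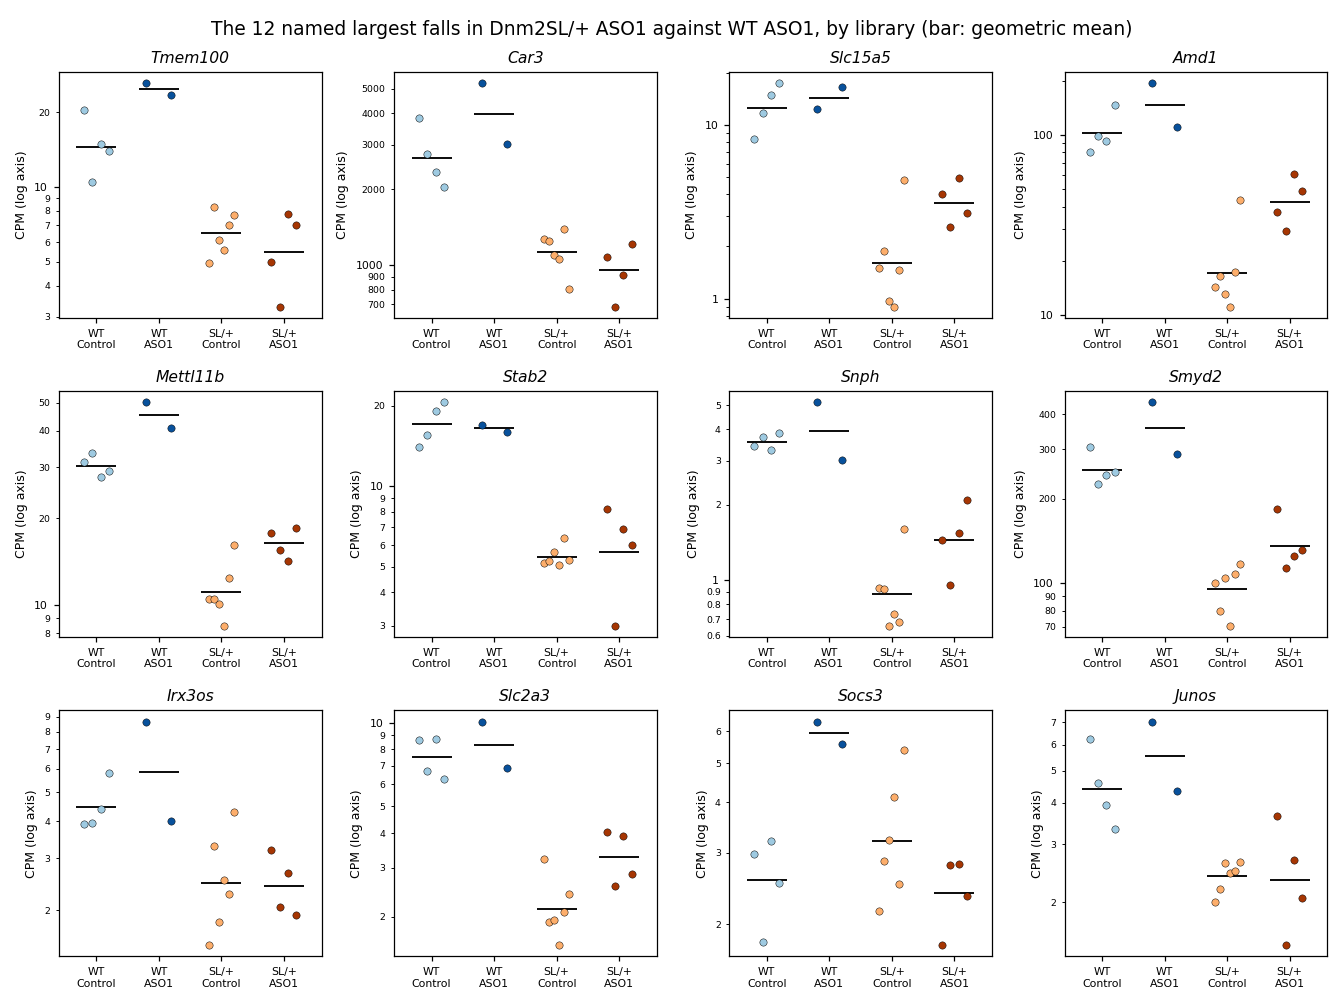
CPM in each of the 16 libraries (points, vertical log axis, a scale of its own for each gene) for the 12 named falls, in the 4 groups on the horizontal axis, with a bar at each group's geometric mean. In every panel both WT ASO1 points lie above all 4 Dnm2SL/+ ASO1 points, as the naming rule requires, and for Socs3 they also lie above all 4 WT ASO Control points.

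Called genes of the slow contractile programme were higher in the treated mutants and those of the fast programme lower. Of 16 slow-fibre genes tested, 3 rose (Tnni1, Csrp3 and Sln) and none fell, with a median log2 fold change of 1.02 and 16 of 16 above 0, against a median of 0.02 over all genes tested. Their summed level was 384 to 654 CPM in WT ASO1 and 852 to 1093 CPM in Dnm2SL/+ ASO1, with no overlap. Without WT ASO1 replicate 1 the median was 0.62 and without replicate 2 it was 2.31. Tnnc1, the slow troponin C, was at 0.743 and 3.02 CPM against 3.65, 6.5, 14.5 and 5.23 CPM and did not pass (adjusted p = 0.102).

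Of 18 fast-fibre genes, 7 fell (Tnni2, Tnnc2, Tpm1, Actn3, Mylk2, Pvalb and Myoz1) and none rose, with a median of -0.39. Tnnc2, fast troponin C, was at 11552 and 8987 CPM in WT ASO1 and at 7246, 6875, 6821 and 6960.1 CPM in Dnm2SL/+ ASO1 (log2 fold change -0.56 ± 0.09, adjusted p = 0.0118). Actn3, the fast-fibre alpha-actinin, was at 10530.2 and 7348 CPM and at 6244, 4455, 5789 and 5934 CPM (-0.67 ± 0.15, adjusted p = 0.0297). These differences were small folds of very abundant transcripts. Pvalb, parvalbumin, a calcium buffer of fast fibres, was at 12448 and 8121 CPM and at 7173, 6153, 7633 and 6988 CPM (-0.56 ± 0.13, adjusted p = 0.0339). In Tnnc2, Actn3 and Pvalb WT ASO1 replicate 1 was the highest of the 6 libraries, and the list's median was -0.20 without it and -0.57 without replicate 2.

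Glycolysis and glycogen genes also had falls and no rises. Of 26 tested, 4 fell and none rose, with a median of -0.27, which was -0.15 without WT ASO1 replicate 1 and -0.37 without replicate 2. Aldoa, the muscle aldolase, was at 18646 and 14342 CPM in WT ASO1 and at 12322, 11723, 12055 and 12435 CPM in Dnm2SL/+ ASO1 (-0.44 ± 0.11, adjusted p = 0.0362). Ldha, a lactate dehydrogenase subunit, was at 3260.1 and 2664 CPM and at 2154, 1952, 2146 and 1959.5 CPM (-0.53 ± 0.11, adjusted p = 0.0229). Pygm, the muscle glycogen phosphorylase, and Pgm1, which interconverts glucose phosphates, were the other falls (-0.44 and -0.49). Under ASO Control 19 of these 26 genes were called lower.

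Among genes of oxidative metabolism 1 passed the test. Of 27 fatty acid oxidation genes none was called, with a median of 0.21 under ASO1 and -0.23 under ASO Control. Without WT ASO1 replicate 1 the median was 0.00 and without replicate 2 it was 0.44. Of 7 transcripts of the mitochondrial chromosome none was called (median -0.16), whereas all 7 were called lower under ASO Control (median -0.56). The median under ASO1 was -0.30 without WT ASO1 replicate 1 and -0.01 without replicate 2. Leaving out the 20 most counted genes also removed abundant members of this list, such as mt-Cytb. The 0.33 then found is a median of the members left, not of the 7, of which 1 was above 0 in the full fit. None of 35 nuclear complex I genes and 1 of 38 genes of complexes II to V (Atp5l, lower) was called.

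Of 20 embryonic and regeneration genes 2 rose, Nes and H19, and none fell. Nes, nestin, an intermediate filament of immature and regenerating fibres, was at 65.3 and 77.9 CPM in WT ASO1 and at 123, 157, 156 and 129.5 CPM in Dnm2SL/+ ASO1 (0.98 ± 0.20, adjusted p = 0.0206). Under ASO Control the Nes effect was 2.42 ± 0.15, larger by the interaction test (adjusted p = 0.00815). H19, an imprinted non-coding RNA of growing muscle, was at 651 and 734 CPM and at 1538, 2388, 1093 and 2086 CPM (1.36 ± 0.28, adjusted p = 0.0215), against 1.55 ± 0.21 under ASO Control. None of 21 denervation and neuromuscular junction genes was called, though 9 were called higher under ASO Control.

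Among 17 satellite cell genes 2 fell, both markers of the quiescent muscle stem cell. The list did not move as a whole: its median was -0.41, but 7 of the 17 were above 0. Its summed level overlapped between WT ASO1 (371 to 385 CPM) and Dnm2SL/+ ASO1 (355 to 420 CPM). Myf5, a myogenic transcription factor, was at 1.24 and 1.83 CPM in WT ASO1 and at 0.559, 0.231, 0.687 and 0.507 CPM in Dnm2SL/+ ASO1 (-1.62 ± 0.39, adjusted p = 0.0346). Calcr, the calcitonin receptor, was at 0.884 and 0.827 CPM and at 0, 0.0330, 0.196 and 0.190 CPM (-2.97 ± 0.72, adjusted p = 0.0355). Both lay at low counts. Fewer cells of a type and less RNA per cell cannot be told apart in bulk muscle. Cd34, a marker also carried by endothelial and mesenchymal cells, was at 57.2 and 63.2 CPM and at 74.5, 104, 83.1 and 122 CPM and did not pass (adjusted p = 0.0739).

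The triad, the junction of the transverse tubule with the sarcoplasmic reticulum, was represented by 31 genes, of which Sln rose and Jph1, Jsrp1 and Mrln fell. Jph1, junctophilin 1, which holds both membranes together, was at 627 and 495 CPM in WT ASO1 and at 427, 357, 459 and 395 CPM in Dnm2SL/+ ASO1 (-0.46 ± 0.11, adjusted p = 0.036). Mrln, myoregulin, which like sarcolipin inhibits the calcium pump, was at 43.9 and 24.1 CPM and at 15.4, 15.5, 17.8 and 21.4 CPM (-0.95 ± 0.18, adjusted p = 0.0181). Jsrp1, a junctional protein, was at 408 and 342 CPM and at 317, 280.4, 309.6 and 269 CPM (-0.35 ± 0.08, adjusted p = 0.0332), and under ASO Control its effect was in the other direction (0.20 ± 0.06, adjusted p = 0.0247). Ryr1, the calcium release channel, did not pass (-0.34, adjusted p = 0.144).

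Of 36 dynamin and endocytosis genes, Dnm1 rose and Cltb fell, shares near the 1.02% and 2.49% of all genes tested, so the counts say nothing particular to the group. The same holds for the other groups with 1 call in a direction. Dnm1, the dynamin known mainly from neurons, was at 2.33 and 3.70 CPM in WT ASO1 and at 6.15, 6.27, 6.31 and 6.78 CPM in Dnm2SL/+ ASO1 (1.08 ± 0.26, adjusted p = 0.0346), against 1.22 ± 0.18 under ASO Control. Cltb, a clathrin light chain, was at 119.8 and 102 CPM and at 88.1, 80.2, 89.0 and 87.3 CPM (-0.37 ± 0.08, adjusted p = 0.0229), with no called effect under ASO Control (0.06, adjusted p = 0.493). Of 10 genes of centronuclear myopathy, Dnm2 among them, none was called. Bin1, amphiphysin 2, which shapes the transverse tubule, was at 773 and 654 CPM and at 606, 629.8, 655 and 632 CPM (-0.18 ± 0.09, adjusted p = 0.285), and it was called higher under ASO Control (0.47 ± 0.07). The difference between the effects was -0.64 ± 0.11 (adjusted p = 0.0104).

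Among the smaller gene groups, 2 of 13 polyamine enzyme genes fell, Amd1 and Sms, against 2.49% of all genes tested. The list did not move as a whole: its median was 0.02, and 7 of the 13 were above 0. Under ASO Control 4 of the 13 were called higher and 5 lower. Sms, the spermine synthase, was at 91.1 and 76.8 CPM in WT ASO1 and at 45.3, 39.1, 64.3 and 48.4 CPM in Dnm2SL/+ ASO1 (-0.77 ± 0.17, adjusted p = 0.0243). Of 25 membrane repair and Z-disc genes Ahnak2 and Csrp3 rose and Ankrd23 fell (-0.53). Single genes were called in 5 further groups, with Mt3 (metallothionein 3, 2.58) and Cryab (a small heat shock protein, 0.69) higher, and Smad3 (a TGF-beta mediator, -0.71), Atf4 (the factor of the integrated stress response, -0.45) and Ctsd (a lysosomal protease, -0.34) lower. No gene was called among 19 p53 and DNA damage genes, 24 immediate early genes, 26 interferon and class I presentation genes and 17 proliferation genes.

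Extracellular matrix genes were mostly above 0, with 1 call. Of 35 tested, 32 had a log2 fold change above 0, with a median of 0.52, but Cilp alone was called. Lum, the proteoglycan lumican, was at 9.76 and 21.3 CPM in WT ASO1 and at 27.8, 35.2, 25.9 and 54.7 CPM in Dnm2SL/+ ASO1 and did not pass (adjusted p = 0.0948). Under ASO Control 20 of the 35 were called higher.

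Markers of several other cell types had higher values in the mutant libraries without passing the test. All 22 macrophage markers had a log2 fold change above 0 (median 0.56), none was called, and their summed level overlapped between WT ASO1 (46.8 to 120.1 CPM) and Dnm2SL/+ ASO1 (77.4 to 170.0 CPM). Of 16 fibro-adipogenic progenitor markers 15 were above 0 (median 0.92), none was called, and the sums were 750.4 to 1139 and 1133 to 1962 CPM. Of 13 Schwann cell markers 13 were above 0 (median 0.68), none was called, and the sums were 58.1 to 128 and 88.3 to 252 CPM. Each of the sums overlapped between groups, and WT ASO1 replicate 1 set much of the medians. Without it they were 0.05, 0.45 and 0.10 for macrophage, progenitor and Schwann cell markers, and without replicate 2 they were 1.59, 1.66 and 1.53. Whether these cells contributed to the rise of Cilp and other matrix genes was not tested.

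Of 12 adipocyte markers tested only Car3, which muscle also expresses, was called, and it fell, whereas the median of the list was 0.94. Adipoq, the defining adipocyte hormone, was at 1.06 and 1.33 CPM in WT ASO1 and at 3.16, 1.55, 11.3 and 1.24 CPM in Dnm2SL/+ ASO1, and Plin1, the lipid droplet coat protein, was at 0.531 and 0.503 CPM and at 2.30, 1.12, 6.28 and 1.08 CPM (2.37 ± 1.15, adjusted p = 0.258). The Adipoq values overlapped between the groups, with the third mutant library far above the rest. No gene was called among 16 endothelial, 14 pericyte and smooth muscle, 10 tendon, 5 erythroid and 8 lymphocyte and neutrophil markers. The last list had 19 genes, of which Cd3e and Ltf had no count in any ASO1 library.

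**Figure D4:**
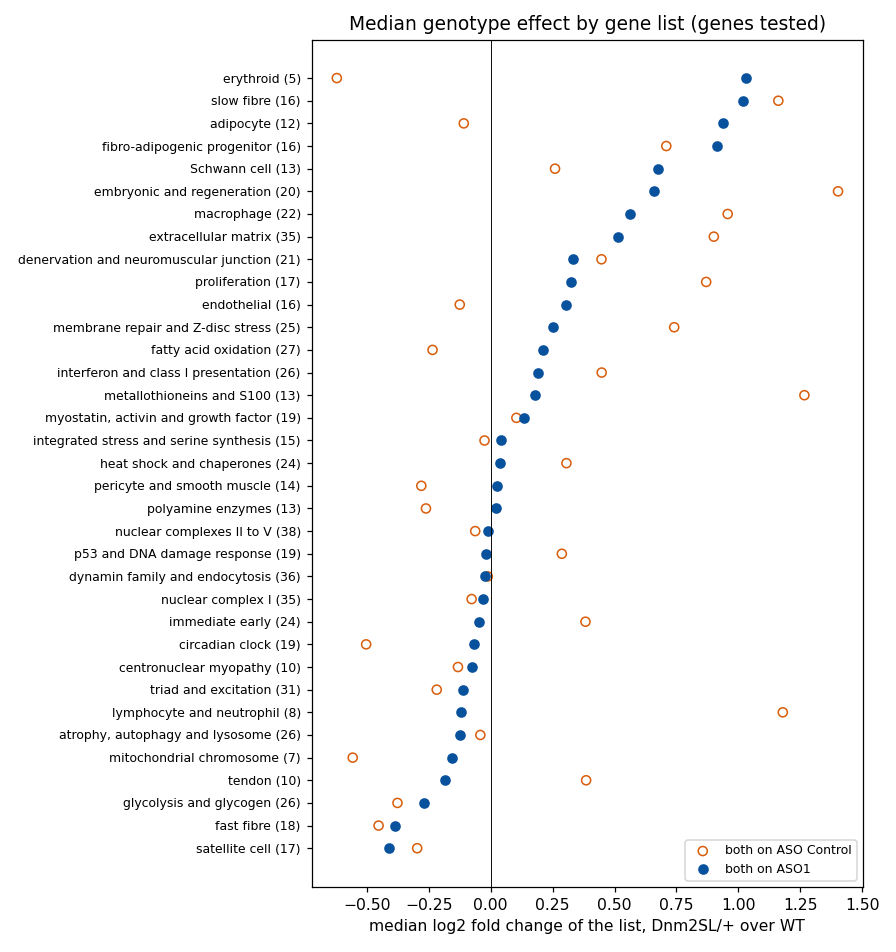
Median log2 fold change of Dnm2SL/+ over WT (horizontal axis) for each of the 35 gene lists (vertical axis, number of genes tested in brackets), with both genotypes on ASO1 (filled) and on ASO Control (open). The slow-fibre list lies at 1.02 under ASO1 and the fast-fibre list at -0.39, near their ASO Control values of 1.16 and -0.45, while the embryonic list lies at 0.66 against 1.40.

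The genotype effect under ASO1 was next set beside that under ASO Control, which was measured in other libraries, 6 against 4. Under ASO Control 2456 genes were higher in Dnm2SL/+ (15.7% of genes tested) and 2565 lower (16.4%), so more genes were called there, with more libraries on both sides. Of the 160 genes higher under ASO1, 121 (75.6%) were also called higher under ASO Control, 37 were not called and 2 were called lower. Of the 389 lower genes, 240 (61.7%) were called lower under ASO Control, 137 were not called and 12 were called higher.

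Taken from the other side, the genes changed by the mutation under ASO Control mostly kept their direction at a smaller size. Of the 2456 higher genes 1921 (78.2%) had a log2 fold change of the same sign under ASO1, 121 (4.93%) were called, and the median went from 0.72 to 0.27. Of the 2565 lower genes 2001 (78.0%) kept the sign, 240 (9.36%) were called, and the median went from -0.40 to -0.16. Across all 15649 genes the log2 fold changes had a Pearson correlation of 0.52 and a Spearman correlation of 0.42, given as a description since genes are not independent. These genes were selected by their values under ASO Control, so the medians are a description and not a test of the difference.

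The difference between the effects was therefore tested as an interaction of genotype and oligonucleotide, which called 442 genes (2.82%). In 354 of them the effect under ASO1 was nearer to 0 than that under ASO Control, and 397 had been called under ASO Control. The 6 genes with the smallest p were all called higher under ASO Control, and 5 of them had no called effect under ASO1. Each stayed called in every fit that left out a library and kept both WT ASO1 libraries. They were picked by their p in these same libraries, so this is no separate support.

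Cav3, the caveolin of the muscle membrane, was at 62.6 and 58.0 CPM in WT ASO1 and at 52.5, 59.1, 55.6 and 59.9 CPM in Dnm2SL/+ ASO1, so the groups overlapped. On ASO Control it had been at 39.9 to 52.9 CPM in WT and 83.0 to 93.5 CPM in Dnm2SL/+. The log2 fold changes were -0.09 ± 0.09 and 0.91 ± 0.07, and their difference was -0.996 ± 0.12 (adjusted p = 0.00179).

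Tspo, a cholesterol-binding protein of the outer mitochondrial membrane, was at 12.8 and 12.4 CPM in WT ASO1 and at 15.2, 18.2, 22.6 and 21.6 CPM in Dnm2SL/+ ASO1, against 43.7 to 64.6 CPM in mutants on ASO Control. All treated mutants were above both treated WT libraries, but the effect of 0.62 ± 0.18 did not pass (adjusted p = 0.0614). The difference from ASO Control was -1.71 ± 0.21 (adjusted p = 0.0022).

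Mvp, the major vault protein, had effects of 0.22 ± 0.11 under ASO1 and 1.40 ± 0.09 under ASO Control (adjusted p of the difference 0.00179). Rnh1, the ribonuclease inhibitor, had effects of 0.00 ± 0.11 and 1.04 ± 0.09 (adjusted p of the difference 0.00283). Ankrd10 had effects of -0.14 ± 0.12 and 1.02 ± 0.10 (adjusted p of the difference 0.00283). None of these passed the test under ASO1.

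Cd63, a tetraspanin of late endosomes, was called in opposite directions. It was at 37.2 and 28.9 CPM in WT ASO1 and lower, at 26.8, 23.2, 25.0 and 23.1 CPM, in Dnm2SL/+ ASO1 (-0.43 ± 0.10, adjusted p = 0.027). On ASO Control it was at 26.5 to 29.6 CPM in WT and higher, at 38.3 to 44.7 CPM, in Dnm2SL/+ (0.58 ± 0.07). The treated mutants thus lay at or below the untargeted WT libraries, and the difference between the effects was -1.01 ± 0.12 (adjusted p = 0.00179).

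Of the 549 genes called under ASO1, 54 also had a called interaction. Among them 29, Socs3 and Cltb included, had no called effect under ASO Control, 14 had called effects in opposite directions, as Cd63 and Jsrp1 did, and 11 had called effects in the same direction, as Ahnak2, Ttc9 and Nes did. For the other 495 genes the test did not show that the effect differed between the oligonucleotides, which does not mean that it was equal.

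**Figure D5:**
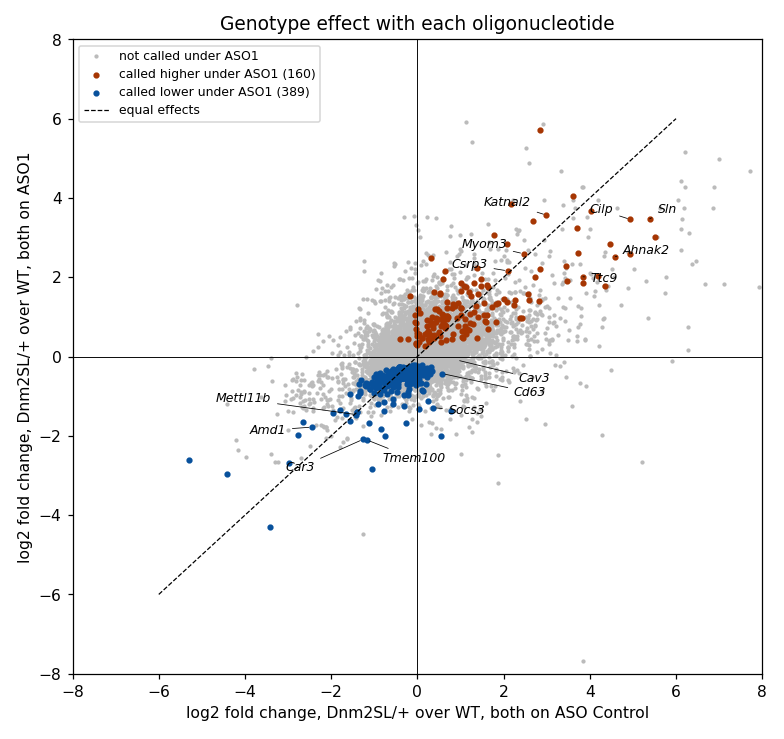
Log2 fold change of Dnm2SL/+ over WT for 15649 genes with both genotypes on ASO Control (horizontal axis) and on ASO1 (vertical axis), with the 160 genes called higher and the 389 called lower under ASO1 in colour and the line of equal effects dashed. Katnal2, Myom3, Csrp3 and Mettl11b lie near the line, Ahnak2 and Ttc9 below it, and Cav3 near 0 on the vertical axis. Sparsely counted genes form the outer points.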

How the data were processed

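Strand-specific mRNA libraries (TruSeq Stranded mRNA) of tibialis anterior were sequenced. Per the submitters' processing notes, reads were handled with HTSeq 0.6.1p1, STAR 2.5.3a, cutadapt 1.10 and Bowtie2 2.2.8 on mm10 (GRCm38). Which annotation was counted, and whether strand was used, is not given in the sources used here. The authors deposited whole-number read counts per gene for 16 libraries, with no normalization, and corrected the labels of 1 WT ASO Control library after first release. Counts of 30148163 to 33667052 per library limit precision little for abundant genes; the number of libraries limits it more.

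Genes with low counts were removed with filterByExpr (minimum count 10). A quasi-likelihood model with a mean for each of the 4 groups was fitted to all 16 libraries (edgeR 4.0.16, TMM scaling, R 4.3.3), with 12 residual degrees of freedom, and p-values were adjusted over 15649 genes by the Benjamini-Hochberg method. Contrasts were Dnm2SL/+ ASO1 against WT ASO1, the same under ASO Control, and their difference. CPM used TMM library sizes. The fit was tested on simulated data. Positions came from GENCODE M21.

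Named genes were Dnm2, the 12 largest rises and falls (as defined with the results), up to 4 genes with the smallest p per list and the 6 genes with the smallest interaction p. Members and the 35 lists (661 genes tested) were chosen with earlier results of these data known. Alternatives were RLE and upper-quartile scaling, other filters, DESeq2 1.42.0, limma 3.58.1 voom, fewer genes or libraries, a replicate block and leaving out each library.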

Additional observations from a re-analysis of the deposited data

Results flagged for a closer look

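Csrp3 and Ahnak2 each had 1 Dnm2SL/+ ASO1 library far above the other 3. Csrp3 was at 209, 115, 123 and 129 CPM and Ahnak2 at 12.6, 10.8, 23.8 and 12.8 CPM, and the values set apart were 209 and 23.8 CPM. They came from different libraries, replicate 1 and replicate 3. The gap was judged by Dixon's criterion in 27 groups of 4 libraries, and chance sets apart about 1 in 20 such groups.

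The genotype effect differed between ASO1 and ASO Control, by the interaction test of edgeR, for 20 named genes. The effect under ASO1 minus that under ASO Control, in log2 units, was -2.07 for Ahnak2, -1.83 for Ttc9 and -1.44 for Nes, which were called higher in Dnm2SL/+ under both. It was -1.71 for Tspo, -1.18 for Mvp, -1.16 for Ankrd10, -1.04 for Rnh1 and -0.996 for Cav3, which were called under ASO Control only, with the interaction as the test of the difference. It was -1.01 for Cd63 and -0.55 for Jsrp1, called in opposite directions, and -1.65 for Socs3 and -0.42 for Cltb, called under ASO1 only.

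The other 8 were named as members of a gene list and were called under ASO Control but not under ASO1. The difference was -2.44 for Eda2r, -1.60 for Ncam1, -1.58 for Scx, -1.28 for S100a13, -0.64 for Bin1 and -0.53 for Hspb2, which were called higher under ASO Control, and 1.07 for Cpt1b and 0.44 for Itsn1, which were called lower there.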

How the results depend on the processing

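With 549 genes called under ASO1 (160 higher, 389 lower), the count moved by more than 1.5 times under several alternatives. It was 302 (106 higher, 196 lower) with no filter, 1169 (453 and 716) with DESeq2, 244 (38 and 206) with limma voom, 116 (83 and 33) for changes above 2-fold, 4 (2 and 2) with only the 6 ASO1 libraries, and 47 with DESeq2 without the first WT ASO1 library. Upper-quartile scaling left 257 lower genes. Leaving out 1 library gave 0 to 625 calls (0 to 211 higher, 0 to 444 lower). DESeq2 and voom both called 239 of the 549. The interaction count of 442 became 274 with no filter, 1072 with DESeq2, 124 above 2-fold, and 30 to 706 with 1 library left out, the lowest without WT ASO1 replicate 1 and the highest without Dnm2SL/+ ASO Control replicate 1. ASO Control calls fell from 5021 to 1202 above 2-fold, of which 87.9% kept their sign under ASO1 against 78.1% of all. The share of the 10 most counted genes differed by -0.962 percentage points, against -2.34 for the 20 most counted, and the mitochondrial share difference of -0.17 ran from -1.77 to 1.43 with 1 library left out. No called result reversed, which the absence of overlap between the ASO1 groups nearly fixed in advance for the genotype calls. The medians of some lists near 0 changed sign. Named genes stayed called in 922 of 1246 fits and lost the call in 324, among them all 50 without WT ASO1 replicate 1. The cause of these shifts was not tested.

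With the replicate number as a block, 123 genes were called (35 higher, 88 lower) and 115 by the interaction. Same-numbered ASO1 libraries had deviations from their group means with correlations of 0.139 and -0.0999. With 2 WT ASO1 libraries the deviations of that group mirror each other, so these values cannot decide whether the numbers pair the samples.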

Other observations

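Proteasome and ribosomal protein genes, families chosen after their values had been seen and so given no test, had medians below 0 under ASO1. Over all genes tested 2.49% were called lower and 1.02% higher under ASO1, and 16.4% lower and 15.7% higher under ASO Control. Of 37 proteasome subunit genes 9 were called lower under ASO1 and none higher, with 33 of 37 below 0 and a median log2 fold change of -0.19, while 12 were called higher and none lower under ASO Control (median 0.11). Psmc4, an ATPase of the regulatory particle, was at 106 and 98.1 CPM in WT ASO1 and at 88.9, 87.2, 89.1 and 87.5 CPM in Dnm2SL/+ ASO1, with WT ASO Control at 89.1 to 95.3 CPM. The summed proteasome level was 3968 and 3523 CPM in the 2 WT ASO1 libraries, 3128 to 3334 CPM in Dnm2SL/+ ASO1 and 3323 to 3513 CPM in WT ASO Control. WT ASO1 replicate 1 was thus the highest, and replicate 2 lay just above the WT ASO Control range.

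Of 78 cytosolic ribosomal protein genes 6 were called lower and none higher under ASO1 (median -0.13). Under ASO Control 6 were called higher and 1 lower (median 0.13), smaller shares than the 15.7% and 16.4% of all genes tested. The summed level of the ribosomal protein genes was 3843 and 3466 CPM in WT ASO1 and 3126 to 3503 CPM in Dnm2SL/+ ASO1, so the groups overlapped.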
